A study of Mus musculus with 17 samples.

Results

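The genes described here are 10 classical markers of epithelial and mesenchymal identity, followed through the distal MC38 tumors of mice: the keratin genes Krt7, Krt8, Krt14, Krt18, Krt19 and Krt20, the epithelial adhesion genes Epcam and Cdh1, and the mesenchymal genes Cdh2 and Vim. They are 10 of the 21931 genes counted in the deposited table and were selected by name, with the high level of Krt14 and the variable level of Krt18 already known from these libraries, so those levels and that variability are given below as a description without a test. MC38 is a mouse colon cancer line, which the labels describe as mesenchymal cells. Wild-type C57BL/6J mice aged 6 to 8 weeks received the cells subcutaneously on either flank. On day 7 the tumor on the treated side was frozen with a cryoprobe in 2 cycles of 20 s in the cryoablation group, and 5 days later the untreated tumor of the other side was taken for bulk RNA sequencing, giving 9 control and 8 cryoablation tumors by the labels. The study's text gives the group sizes the other way round and its methods give a longer freeze, and the labels were followed for both. None of the sequenced tumors had itself been frozen, and both groups carried the same cell line, with no allele or drug added. The labels do not tie tumors to animals, so that p-values measure the spread between these tumors.

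Keratins are intermediate filament proteins that polymerise only as pairs of a type I and a type II chain. Simple epithelia such as the gut lining make Krt8 (type II) with Krt18, Krt19 and Krt20 (type I), ductal epithelia add Krt7 (type II), and the basal layer of stratified epithelia makes Krt14 (type I) with Krt5 (type II). Cells that leave the epithelial state typically lose Cdh1 (E-cadherin) and Epcam at their contacts and make Cdh2 (N-cadherin) and Vim (vimentin, the intermediate filament of mesenchymal cells), a program driven by the transcription factors Snai1, Snai2, Zeb1, Zeb2 and Twist1.

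The tumors were sequenced to similar depth, with 13524899 to 17898672 reads counted on genes per tumor. A count of 0 therefore allows up to 3 counts in that library, counting error only. Cryoablation tumors 2, 4 and 5 stood apart in the length of the genes read: genes with a listed length under 2000 bases took 21.9% to 23.9% of their counts, against 11.3% to 18.3% in the other 14 tumors. Fold changes of the tested members other than Cdh1 and Cdh2 are given with and without these 3 tumors. The same holds for the relations of Krt14 with Krt5, Krt18 and the epidermal genes, and of Vim with Krt18, Cdh2 and the fibroblast genes.

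Per length and depth, in FPKM (reads scaled by the length of the gene and the depth of the tumor), Vim and Krt14 stood far above the other 8 genes. Vim had a median of 967 FPKM over the 17 tumors with a range of 890.0 to 1340.4, which placed its median at rank 27 of the 21931 genes. Krt14 followed with a median of 155 FPKM and a range of 107 to 284, at rank 242. The lowest Krt14 value, 107 FPKM, was higher than the highest value of any of the other 8 genes, 37.8 FPKM for Krt19. The third to seventh places were taken by Krt19 (median 3.42 FPKM, range 0.181 to 37.8), Cdh1 (3.21, range 0.889 to 5.98), Cdh2 (2.34, range 1.5 to 3.08), Krt18 (2.10, range 0 to 29.2) and Krt8 (1.67, range 0 to 23). These 5 ranges overlapped, so that their order is not separated by the spread between tumors. Epcam had a median of 0.838 FPKM (range 0.231 to 3.50). Krt7 and Krt20 were lowest, with medians of 0.128 and 0.0970 FPKM, and Krt20 reached at most 7 counts in any tumor.

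**Figure D1:**
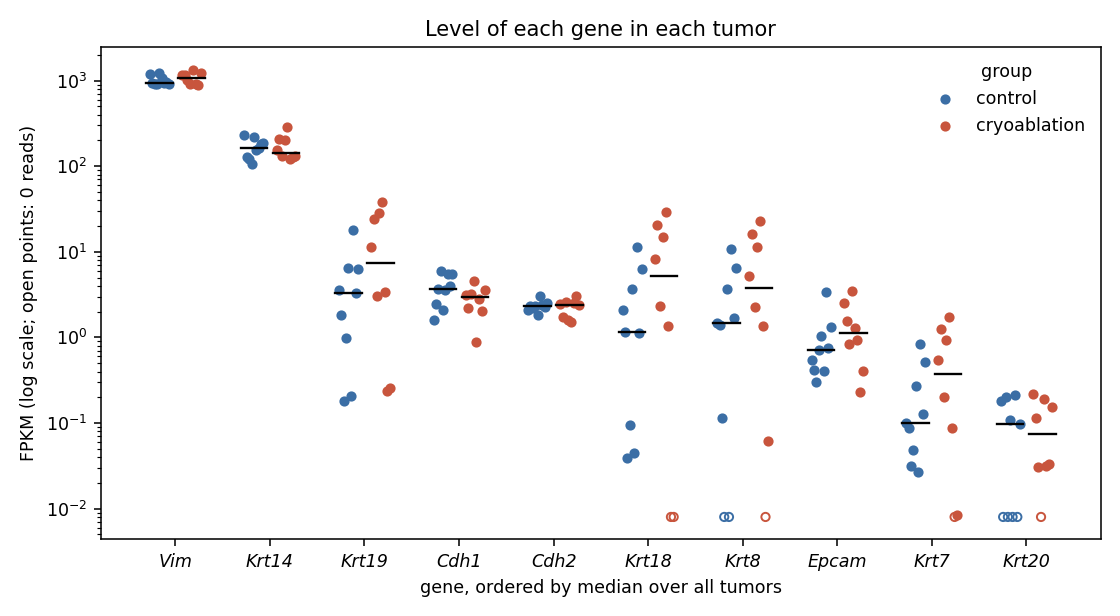
FPKM of the 10 genes (log axis) in each of the 9 control and 8 cryoablation tumors, with a bar at each group's median; open points at the bottom are tumors with 0 reads. Vim and Krt14 form narrow clouds between 107 and 1340.4 FPKM, while Krt18 and Krt8 spread from 0 to 29.2 and 23 FPKM.

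The label was checked against gut and skin markers. Cdx2, the transcription factor that specifies intestinal epithelium, had 0 counts in all 17 tumors, Hnf4a had at most 1 count and Vil1, the microvillus protein villin, at most 11. Of the 20 intestinal genes listed, 3 were at 0 in every tumor and 10 never exceeded 3 counts, and the best expressed was Lgals4, a gut galectin, with a median of 4.79 FPKM. Krt20, a keratin of gut epithelium and urothelium, was thus low together with the factors of that tissue. Of the 25 epidermal and hair follicle genes listed, 5 were at 0 in every tumor and 8 never exceeded 3 counts. Genes of epidermal differentiation and of basal identity were scarce: Flg had 0 counts in all 17 tumors, Lor and Ivl at most 2, and Trp63, the master regulator of basal keratinocytes, 1 to 15 counts. Others of the list were well detected, with medians of 16.5 FPKM for Sfn, the stratifin of stratified epithelia, and 2.63 FPKM for Ly6d. By contrast the transcription factors of the mesenchymal program were all detected in every tumor, with median levels of 7.51 FPKM for Zeb1, 5.93 for Zeb2, 19.0 for Snai1, 27.3 for Snai2 and 37.1 for Twist1. The markers thus showed tumors with high Vim, high Krt14 and little of the gut program. In bulk samples fewer cells of a type and less RNA per cell cannot be told apart, and the tumors also held host cells, with median summed levels in the control tumors of 1251 FPKM for 12 fibroblast genes and 2915 FPKM for 12 leukocyte genes.

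Krt14 (chr11:100093988-100098374, minus strand, as the authors' table lists it) made up nearly all of the type I keratin mRNA. The table holds 53 keratin genes, 28 of type I and 25 of type II, of which 21 had 0 counts in all tumors. Krt14 took 77.5% to 97.1% of the summed FPKM of the type I genes, with a median of 93.2%. Its usual partner Krt5 had a median of 0.167 FPKM and at most 51 counts, and the other basal or wound keratins were low too: Krt17 reached 25 counts, Krt15 reached 9, Krt6a reached 13 and Krt6b had 0 in every tumor. Krt16, whose sequence is close to that of Krt14 so that reads may have been split between them, had a median of 3.79 FPKM.

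The type II side was led by a gene outside the usual pairs. Krt80 had a median of 3.94 FPKM and 152 to 708 counts, and it took a median of 58.7% of the summed type II FPKM, with a range of 8.98% to 97.0%. Type I mRNA exceeded type II mRNA in every tumor, by a ratio of summed FPKM of 11 to 41.2 with a median of 22. Without Krt14 this ratio fell between 0.775 and 3.55, with a median of 1.75. The imbalance between the types in these tumors thus lay in Krt14. After Krt80 and Krt16, the best expressed keratins outside the set were Krt10 (median 1.30 FPKM), Krt13 (1.28 FPKM) and Krt79 (0.257 FPKM).

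Krt18 behaved differently from Krt14: its counts ran from 0 to 568, and they left a gap. Control tumors 3, 4 and 6 had 1, 2 and 1 Krt18 counts, and cryoablation tumors 7 and 8 had 0. The other 12 tumors, 6 of each group, had 27 to 568 counts, and no tumor lay between 2 and 27. The other simple keratins followed the same order. The 5 tumors with the least Krt18 had 0 to 4 Krt8 counts against 41 to 609 in the rest, 0 to 5 Krt7 counts against 10 to 165, and 6 to 27 Krt19 counts against 56 to 949. Krt5 also split this way, with 0 to 1 against 3 to 51 counts. Epcam did not, since its 8 to 23 counts in those 5 tumors overlapped with 15 to 127 in the rest. Krt14 overlapped widely as well, with 2783 to 4292 against 3544 to 6761 counts. The tight-junction genes Cldn3 and Cldn4 had 0 counts in the same 5 tumors, and 3 to 31 and 1 to 49 counts in the rest. They were picked from 12 epithelial genes that did not pass the filter on low counts. The ranges of the others met or overlapped, such as Cldn7 with 0 to 5 against 1 to 15 and Esrp2 with 0 to 6 against 0 to 13.

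**Figure D2:**
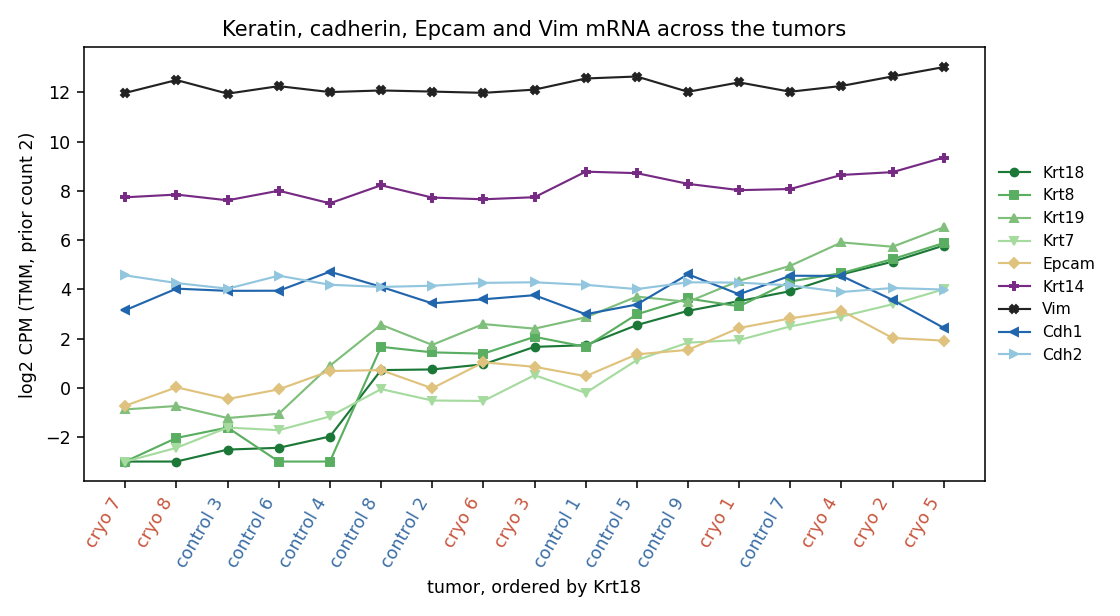
Log2 CPM (counts scaled to the TMM library size, prior count 2) of 9 of the genes in each tumor, with the tumors ordered by Krt18 and their names coloured by group. Krt8, Krt19 and Krt7 climb with Krt18 from left to right, while Vim, Krt14, Cdh1 and Cdh2 stay within narrower bands. Cryoablation tumors 7 and 8 stand at the left end and cryoablation tumors 4, 2 and 5 at the right end.

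The spread of the simple keratins was extreme for these libraries. Ranked by the SD of log2 CPM (counts scaled to the TMM library size) over all 17 tumors, Krt8 was the 1st of 13005 genes tested (SD 3.0), Krt18 the 2nd (2.95), Krt19 the 4th (2.52) and Krt7 the 8th (2.09). Epcam was at rank 205 (SD 1.14) and Cdh1 at rank 2257 (SD 0.62). Krt14 was at rank 3333 (SD 0.52), Vim at 7500 (SD 0.32) and Cdh2 at 11345 (SD 0.18), so that the high genes Vim and Krt14 varied far less than the simple keratins.

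Where the simple keratins were present they kept nearly fixed proportions. In the 12 tumors with at least 10 Krt18 counts, the level of Krt18 was 0.681 to 1.58 times that of its obligate partner Krt8 on the FPKM scale, with a median of 1.03. Krt19 was 0.999 to 2.94 times the level of Krt18, with a median of 1.60. Both ratios varied little (SD 0.35 and 0.44 on the log2 scale) beside the range of 27 to 568 counts in Krt18 itself.

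Krt8 and Krt18 lie next to each other: in the authors' table Krt8 spans chr15:101905133-101912917 on the minus strand and Krt18 chr15:101936615-101940462 on the plus strand, 23697 bases apart. Krt7 (chr15:101308924-101328194, plus strand) is 576938 bases from Krt8 and Krt5 is 283799 bases from it, whereas Krt19 (chr11:100031636-100039491, minus strand) is on the chromosome of Krt14, 54496 bases from it. Krt19 ran from 6 to 949 counts while Krt14 stayed between 2783 and 6761, and their log2 CPM had r = 0.70 over the 12 tumors that held Krt18, given as a description. The 250 bases before the RefSeq start (GRCm38.p6) of the 3 type II and type I simple keratins that moved together and had an entry are shown with those of Krt14 for comparison. Capitals mark, on either strand, the E-box CAGGTG that Snail and Zeb repressors bind and the GC box GGGCGG.
Krt8, chr15:102004343-102004592, minus strand: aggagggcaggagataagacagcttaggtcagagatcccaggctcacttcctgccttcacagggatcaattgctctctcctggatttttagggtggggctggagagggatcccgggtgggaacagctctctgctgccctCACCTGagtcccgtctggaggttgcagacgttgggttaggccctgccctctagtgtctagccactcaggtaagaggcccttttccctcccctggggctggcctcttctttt
Krt18, chr15:102027966-102028215, plus strand: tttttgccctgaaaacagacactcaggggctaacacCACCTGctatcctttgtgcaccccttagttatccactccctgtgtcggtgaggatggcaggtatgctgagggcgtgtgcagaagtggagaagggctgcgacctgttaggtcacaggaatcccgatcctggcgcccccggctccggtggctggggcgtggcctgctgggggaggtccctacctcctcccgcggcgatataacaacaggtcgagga
Krt7, chr15:101412153-101412402, plus strand: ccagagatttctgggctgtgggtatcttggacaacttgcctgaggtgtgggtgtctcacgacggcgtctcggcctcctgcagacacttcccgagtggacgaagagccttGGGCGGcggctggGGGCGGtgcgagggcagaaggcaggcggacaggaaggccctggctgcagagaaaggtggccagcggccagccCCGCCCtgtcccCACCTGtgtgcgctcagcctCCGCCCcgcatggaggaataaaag
Krt14, chr11:100206031-100206280, minus strand: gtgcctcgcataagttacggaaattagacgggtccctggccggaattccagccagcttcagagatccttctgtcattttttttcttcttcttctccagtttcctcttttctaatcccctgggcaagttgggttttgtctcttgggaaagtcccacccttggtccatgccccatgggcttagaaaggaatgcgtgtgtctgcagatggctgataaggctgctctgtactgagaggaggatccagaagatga

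Of the 10 genes 7 had a promoter entry. The E-box CAGGTG occurred in 17.2% of all 32851 promoter windows of this length. It matched 1 time each in Krt7, Krt8 and Krt18, at 44, 111 and 214 bases before the start, and 2 times in Epcam, while Krt14, Krt20 and Vim had 0 matches. The GC box GGGCGG, present in 32.7% of windows, matched 4 times in Krt7, 1 time in Epcam and 0 times in Krt8, Krt18, Krt14, Krt20 and Vim. The TATA box TATAAA, present in 12.4%, was found in Krt20 and Vim at 29 and 32 bases before the start and in none of the other 5 windows. The AP-1 element TGANTCA, present in 6.75%, had 0 matches in the 7 windows. The matches did not overlap with each other in the 4 sequences shown. They are letters in a window, and binding was not measured.

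Correlations across tumors were computed for 16 relations on log2 CPM, and p-values came from 100000 permutations (two-sided) adjusted over the 16 by the Benjamini-Hochberg method. Because of the gap in Krt18, its relations are given within the 12 tumors. There Krt8 followed Krt18 with Pearson's r of 0.986 and Spearman's rho of 0.958, Krt7 followed Krt18 (r = 0.987, rho = 0.937), Krt19 followed Krt18 (r = 0.974, rho = 0.951) and Krt19 followed Krt8 (r = 0.963, rho = 0.902). For each of these 4 the permutation p was 1e-05 for r, the smallest these permutations can give, and 4e-05 after adjustment. The values remained at 0.973, 0.981, 0.953 and 0.934 without the 2 tumors farthest from the median. Taking the residuals of all 17 tumors on the short-gene share left r between 0.926 and 0.973.

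Krt14 was linked more loosely. In the 12 tumors Krt14 and Krt18 had r = 0.68 and rho = 0.61, with adjusted permutation p of 0.0382 and 0.0934. The relation rested on few tumors, since r was 0.45 without the 2 farthest (adjusted permutation p = 0.293). Krt14 and its partner Krt5 had r = 0.77 and rho = 0.64 in the 12 tumors (adjusted permutation p = 0.0149 and 0.0763), and r = 0.65 without the 2 farthest (0.158). Of the 25 epidermal and hair follicle genes listed, 6 passed the filter on low counts, Krt5 among them. Over all 17 tumors, Krt14 rose with the mean log2 CPM of these 6 (r = 0.78, rho = 0.76, adjusted permutation p = 0.0012 and 0.00216). That r was 0.53 among control and 0.90 among cryoablation tumors. Without cryoablation tumors 2, 4 and 5 r was 0.52 for the epidermal genes (adjusted permutation p = 0.110), 0.53 for Krt18 (0.110) and 0.69 for Krt5 (0.0193). After both sides were regressed on the short-gene share r was 0.16 for the epidermal genes (adjusted permutation p = 0.598), 0.51 for Krt5 (0.10) and 0.33 for Krt18 (0.342).

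The short-gene share itself moved with several of the genes. Over the 17 tumors its r was 0.88 with Krt14, 0.81 with Vim and -0.68 with Cdh2, and over the 12 tumors it was 0.80 with Krt18, all given as descriptions. The listed length is 1758 bases for Krt14, 1437 for Krt18, 4743 for Vim and 8066 for Cdh2. Its part in the levels was not tested beyond the fits that hold it as a term.

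**Figure D3:**
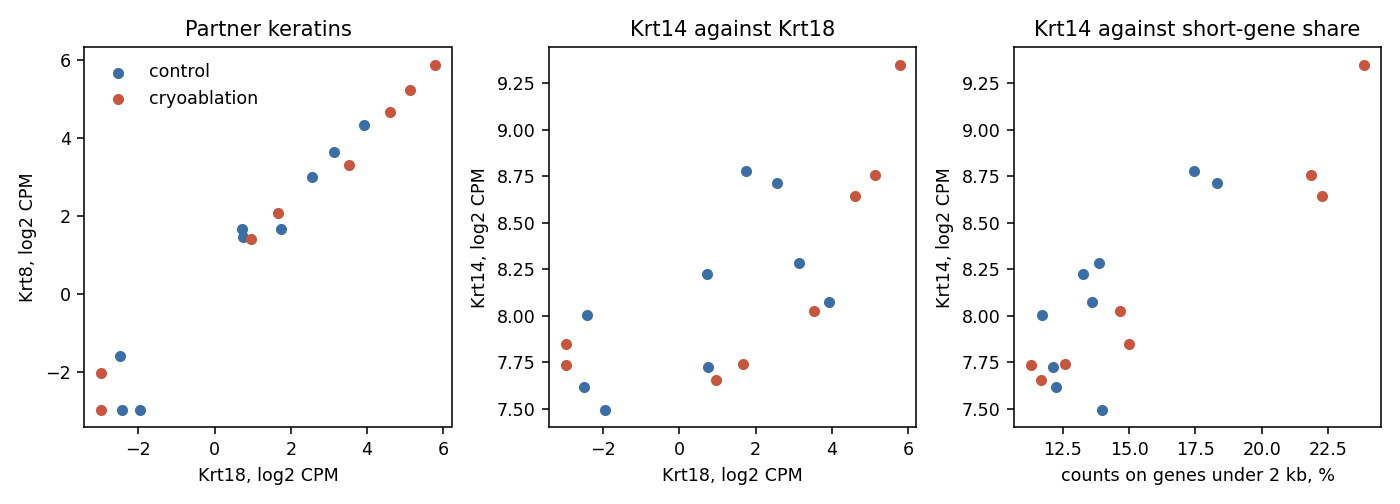
Each point is a tumor, coloured by group: Krt8 against Krt18, Krt14 against Krt18 (log2 CPM), and Krt14 against the percent of counts on genes under 2000 bases. Krt8 and Krt18 lie on a line with 5 tumors apart at the lower left, and the 3 tumors with shares of 21.9% to 23.9% are among the highest for Krt14 in the right panel.

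The genes most like each of 3 members were sought among 12967 genes with a mean of at least 10 counts, by r of log2 CPM over the 17 tumors. The closest to Krt18 were Krt8 (0.984), Krt19 (0.984), Krt7 (0.975), Krt5 (0.967) and Ltf (0.934), lactoferrin of milk and secretions. The closest to Krt14 were Tnnt2 (0.955), Plekhh3 (0.953), Polr1e (0.950), Ada (0.949) and Nradd (0.946), none of them a keratin. The closest to Vim were Cenpb (0.977), Lmna (0.973), AI837181 (0.972), Ncaph2 (0.971) and Lmf2 (0.967). Lmna encodes the nuclear intermediate filament lamin A/C. Over the 12 tumors Krt7, Krt8 and Krt19 held ranks 1, 2 and 3 for Krt18, while Krt5 and Ltf were at ranks 7 and 14. For Krt14, Plekhh3 and Polr1e were then at ranks 6 and 7, Nradd at 98, Tnnt2 at 123 and Ada at 299. All these r values share depth and the short-gene share and carry no test.

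The tested relations of the cadherins and Epcam, which epithelial cells use for contact, were Epcam with Cdh1, Cdh1 with Cdh2 and Cdh2 with Vim. None of them passed the threshold. Relations of Epcam with the keratins, and of Cdh1 with Vim, were not tested and are given as descriptions. Over the 12 tumors Epcam had r = 0.80 with Krt18, 0.84 with Krt19, 0.81 with Krt7, 0.79 with Krt8 and 0.31 with Krt14. Cdh1 and Vim had r = -0.73 over the 12 tumors and -0.59 over 17 tumors. Epcam and Cdh1 had r = 0.24 and rho = 0.20 over 17 tumors (adjusted permutation p = 0.434 and 0.542), and r was -0.07 without the 2 farthest tumors. In the 12 tumors that r was 0.42 (rho = 0.43, adjusted permutation p = 0.240 and 0.215), and in residuals on the short-gene share it was 0.55 (rho = 0.51, adjusted permutation p = 0.0718 and 0.115). Cdh1 and Cdh2 had r = -0.01 and rho = 0.11 (adjusted permutation p = 0.973 and 0.759). Both cadherins were detected in every tumor, and Cdh1 was 0.617 to 2.68 times Cdh2 on the FPKM scale. Cryoablation tumor 5, the highest for Krt18, Krt8, Krt19 and Krt7, was the lowest for Cdh1 with 55 counts. Control tumor 7, the highest control for those genes, had the most Cdh1 counts with 427. Over the 12 tumors Krt18 and Cdh1 had r = -0.04, given as a description. Vim and the simple keratins were also not opposed: Vim and Krt18 had r = 0.62 and rho = 0.55 in the 12 tumors, short of the threshold (adjusted permutation p = 0.0609 and 0.128), and r was -0.19 in residuals on the short-gene share. Over the 14 tumors other than cryoablation tumors 2, 4 and 5, r was 0.18 (adjusted permutation p = 0.72). Vim fell as the mean of the 12 fibroblast genes rose (r = -0.56, rho = -0.60, adjusted permutation p = 0.0415 and 0.0249 over 17 tumors). That r was -0.77 among control and -0.26 among cryoablation tumors, and it was -0.57 without the 2 farthest tumors (adjusted permutation p = 0.0566). It was -0.60 without cryoablation tumors 2, 4 and 5 (adjusted permutation p = 0.0647) and -0.25 in residuals on the short-gene share (0.437). Fibroblasts themselves express Vim, so the host share of Vim cannot be told apart from that of the tumor cells.

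The comparison of cryoablation with control tumors asked whether freezing the opposite tumor went with another balance of these markers. By the study's threshold, a log2 fold change beyond 1 in either direction with an unadjusted p under 0.05, edgeR called 64 of the 13005 genes tested (0.492%), 46 higher and 18 lower in the cryoablation group. It called 0 of the 9 members that passed the filter on low counts, and Krt20 did not pass it. Of all genes 639 had an unadjusted p under 0.05 (4.91%), against 0 of the 9 members. After Benjamini-Hochberg adjustment 0.0% of all genes were under 0.05 in edgeR, DESeq2 and limma voom, and the smallest adjusted p in edgeR was 0.728. DESeq2 put 1 member, Krt19, past the study's threshold (log2 fold change 1.87, adjusted p = 0.809). Limma voom put 0 members past it and gave 1 of them, Vim, an unadjusted p under 0.05 (log2 fold change 0.26, adjusted p = 0.472). The median log2 fold change was 0.65 over the 9 members and -0.01 over all genes tested. The median over the same 9 members was -0.36 without cryoablation tumors 2, 4 and 5, -0.36 with limma voom and -0.07 with the short-gene share as a term, so its sign depended on the fit.

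The simple keratins had the largest differences in mean and the largest errors. Krt18 had 1 to 276 counts in the control tumors (median 29) and 0 to 568 in the cryoablation tumors (median 112), or 4.01 ± 5.09 CPM (SD, n = 9) and 16.3 ± 20.1 CPM (SD, n = 8). Cryoablation tumors 2, 4 and 5, with 404, 311 and 568 counts, lay above every control tumor, and cryoablation tumors 7 and 8, with 0 counts, below every one. The control median was exceeded by 6 of 8 cryoablation tumors. Its log2 fold change was 2.01 with a standard error (SE) of 1.05, and the edgeR p of 0.0706 became 0.728 after adjustment. An exact permutation test over the 24310 splits of the tumors, two-sided, gave p = 0.372 for its log2 CPM.

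Krt19 had 6 to 565 counts in the control tumors (median 96) and 7 to 949 in the cryoablation tumors (median 201.5). In CPM these were 8.18 ± 9.65 (SD, n = 9) and 29.6 ± 34.3 (SD, n = 8). Cryoablation tumors 2, 4 and 5, with 616, 767 and 949 counts, lay above every control tumor, and the other cryoablation tumors lay within the control range. The log2 fold change was 1.85 (SE 0.92, edgeR p = 0.0600, adjusted 0.728), with an exact permutation p of 0.320.

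Krt8 ranged from 0 to 363 counts in the control tumors (median 45) and from 0 to 609 in the cryoablation tumors (median 110). Its log2 fold change was 1.65 (SE 1.04, edgeR p = 0.128, exact permutation p = 0.385). Krt7 ranged from 3 to 101 counts (median 10) and from 0 to 165 (median 39.5), with a log2 fold change of 1.63 (SE 0.88, edgeR p = 0.0803, exact permutation p = 0.428). For both genes the control median was exceeded by 5 of 8 cryoablation tumors.

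These 4 positive values turned negative in 3 other fits. Without cryoablation tumors 2, 4 and 5 the log2 fold changes were -0.32 for Krt18, -0.36 for Krt19, -0.73 for Krt8 and -0.48 for Krt7. With limma voom, which weights tumors by quality, they were -0.98, -0.36, -0.72 and -0.82, and with the short-gene share as a term in edgeR -0.07, -0.04, -0.39 and -0.22. The control side mattered too: without control tumor 7, the highest control for all 4 genes, edgeR put Krt7, Krt18, Krt19 and Epcam past the study's threshold. Leaving out cryoablation tumor 7 or 8, both near 0, did so for Krt7, Krt18 and Krt19, and leaving out cryoablation tumor 3 or 6 for Krt19 alone. The sign of the simple keratin difference thus depended on the tumors and the fit.

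**Figure D4:**
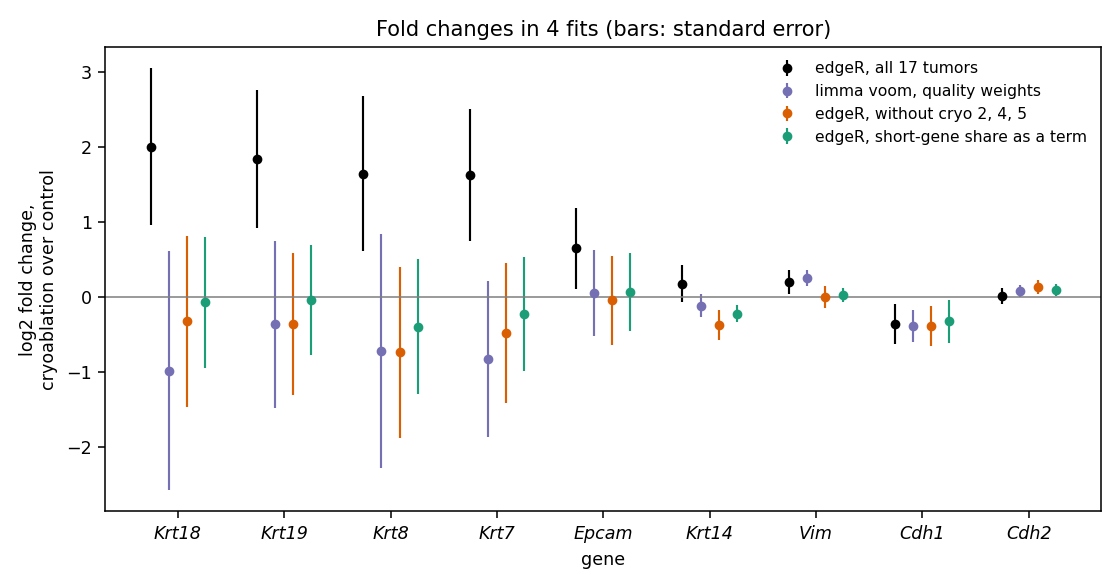
Log2 fold change of cryoablation over control (bars, SE) for the 9 tested genes in 4 fits: edgeR with all 17 tumors, limma voom with quality weights, edgeR without cryoablation tumors 2, 4 and 5, and edgeR with the short-gene share as a term. The black points of Krt18, Krt19, Krt8 and Krt7 lie between 1.63 and 2.01, and their other points lie below 0 with bars that cross it.

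Krt14 had 2783 to 5872 counts in the control tumors (median 4913) and 3538 to 6761 in the cryoablation tumors (median 3887.5). Its mean was 287 ± 92.3 CPM (SD, n = 9) and 326 ± 159 CPM (SD, n = 8), and 3 of 8 cryoablation tumors exceeded the control median. The log2 fold change was 0.18 (SE 0.25, edgeR p = 0.474, exact permutation p = 0.656). It was -0.04 without cryoablation tumor 5, the highest for Krt14, -0.37 without tumors 2, 4 and 5, -0.11 with limma voom and -0.22 with the short-gene share as a term.

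Among the contact genes, Epcam (chr17:87943407-87958557, plus strand) had 12 to 127 counts in the control tumors (median 23) and 8 to 111 in the cryoablation tumors (median 36). The log2 fold change was 0.65 (SE 0.54, edgeR p = 0.240, exact permutation p = 0.332), and it was -0.04 without tumors 2, 4 and 5. Cdh1 (chr8:107329983-107396878, plus strand) ran the other way, with 105 to 427 counts (median 301) in the control tumors and 55 to 298 (median 207.5) in the cryoablation tumors. Only 2 of 8 cryoablation tumors exceeded the control median of Cdh1, but the groups overlapped and the log2 fold change was -0.35 (SE 0.27, edgeR p = 0.207, exact permutation p = 0.255).

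The mesenchymal members were the steadiest. Cdh2 (minus strand of chromosome 18) had 209 to 392 counts in the control tumors (median 320) and 164 to 392 in the cryoablation tumors (median 301.5), with a log2 fold change of 0.02 (SE 0.10, edgeR p = 0.841, exact permutation p = 0.875). Vim (chr2:13578738-13587637, plus strand) had 63506 to 83061 counts (median 77590) and 62454 to 96625 (median 76891.5). Its mean was 4671 ± 904 CPM (SD, n = 9) and 5395 ± 1443 CPM (SD, n = 8), and the log2 fold change was 0.21 (SE 0.16, edgeR p = 0.201, exact permutation p = 0.231). Without tumors 2, 4 and 5 the log2 fold change of Vim was 0.01. Krt20 had 0 to 7 counts in the control tumors and 0 to 6 in the cryoablation tumors (exact permutation p = 0.649).

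Ratios between the genes, which do not depend on scaling between libraries, did not separate the groups either. The log2 ratio of type I to type II keratin FPKM was 4.52 ± 0.50 (SD, n = 9) in the control and 4.29 ± 0.58 (SD, n = 8) in the cryoablation tumors, a difference of -0.23 (exact permutation p = 0.394). That difference was 0.09 without tumors 2, 4 and 5. The log2 ratio of Cdh1 to Cdh2 was 0.58 ± 0.58 (SD, n = 9) and 0.22 ± 0.66 (SD, n = 8), a difference of -0.36 (exact permutation p = 0.252). Vim was 14.6 to 3932 times the summed FPKM of Krt7, Krt8, Krt18 and Krt19, with a median of 146. The log2 of that ratio differed by -1.02 between the groups (exact permutation p = 0.471), and by 0.72 without tumors 2, 4 and 5.

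Other genes of the same programs were given by lists. Of 27 genes of epithelial junctions and their regulators 15 were tested, 0 passed the study's threshold and 1 had an unadjusted p under 0.05: Ctnnd1, the p120 catenin that holds cadherins at the membrane, with a log2 fold change of 0.55 (edgeR adjusted p = 0.728). Of 22 mesenchymal genes 21 were tested and 0 passed, while Twist2 (log2 fold change 0.72) and Cdh11 (-0.79) had an unadjusted p under 0.05 in opposite directions (edgeR adjusted p = 0.728 for both). Cdh11 did pass with limma voom (-1.05, adjusted p = 0.414) and in edgeR without cryoablation tumor 3 (-1.03, adjusted p = 0.465). Of 16 genes for partners of vimentin and keratin filaments 13 were tested and 0 had a p under 0.05. Among the 47 other keratins 6 were tested and 0 passed. Krt10, a keratin of suprabasal epidermis, had a log2 fold change of 0.73 and Krt80 had -0.35, both with an unadjusted p under 0.05 and an edgeR adjusted p of 0.728. Beside these list counts, 4.91% of all genes tested had an unadjusted edgeR p under 0.05 and 0.492% passed the study's threshold. Without cryoablation tumors 2, 4 and 5, none of Ctnnd1 (-0.10), Twist2 (-0.0049), Cdh11 (-0.70), Krt10 (0.14) and Krt80 (-0.22) kept an unadjusted p under 0.05. The median log2 fold change was 0.03 in the epithelial list, 0.03 in the mesenchymal list, -0.10 in the filament partners and 0.43 in the other keratins, beside -0.01 over all genes tested. These medians became -0.04, 0.06, -0.0085 and -0.35 without cryoablation tumors 2, 4 and 5, a change of sign in the epithelial list and in the other keratins.

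Some marker lists of other cell types moved with the simple keratins and others did not. The means held only the genes of each list that passed the filter on low counts. Over the 12 tumors, Krt18 had r = 0.96 with the mean of 6 epidermal genes, Krt5 among them, and 0.94 with that of 2 mammary and salivary genes. It had r = 0.63 with the mean of 12 leukocyte genes and 0.56 with that of 9 adipocyte genes. For the leukocyte genes the adjusted permutation p was 0.0564, and r was 0.15 without the 2 farthest tumors. That r was 0.28 over all 17 tumors, -0.31 among control and 0.79 among cryoablation tumors, and 0.07 in residuals on the short-gene share. Krt18 had r = -0.04 with 5 skeletal muscle genes, -0.08 with 10 endothelial genes and -0.30 with 12 fibroblast genes. The epidermal genes summed to 17.2 to 32.3 FPKM in the control and 16.1 to 49.1 FPKM in the cryoablation tumors, with 5 of 25 at 0 in every tumor. The gland genes summed to 2.05 to 3.50 and 2.17 to 3.99 FPKM, with the milk proteins Wap, Csn1s1 and Csn2 at 0 in all 17 tumors. Of the same list, the casein Csn3 had 10 to 103 counts, Lalba at most 6 and Glycam1 at most 4. The adipocyte genes summed to 13.49 to 93.8 FPKM in the control tumors (median 26.2) and 10.7 to 144 FPKM in the cryoablation tumors (median 90.9), and 4 of 9 tested had an unadjusted p under 0.05 as higher, beside 4.91% of all genes in either direction. The study's threshold was passed by 2 of 9, beside 0.492% of all genes: Cfd, the adipsin of fat cells (log2 fold change 1.61), and Retn, resistin (1.57), both with an edgeR adjusted p of 0.728. Without cryoablation tumors 2, 4 and 5 their log2 fold changes were 0.70 and 0.71, and 0 of 9 passed. The part of these tissues in the keratin counts was not tested.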

How the data were processed

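RNA of 17 distal MC38 tumors had been isolated on magnetic beads and sequenced on a NovaSeq instrument. The authors deposited read counts per gene, not normalized, and FPKM; dividing each count by listed length and by the tumor's total gave the same FPKM. The aligner and counting program are not given in the sources used here, and 0 columns were left unmapped. The labels name GRCm38 and mm10, but 512 of 21827 shared genes had the positions of GENCODE M21, so no build is given for the table's positions. Counts were tested with edgeR 4.0.16 (quasi-likelihood, TMM, filterByExpr, group as the only term). DESeq2 1.42.0, limma voom 3.58.1, upper-quartile scaling, no filter, a replicate block, leaving tumors out and a short-gene term were alternatives, the last added after seeing the data, as were the relations within the 12 tumors and on residuals. Fits were tested on simulated data. Exact permutation tests used log2 CPM with a prior count of 2; a cadherin ratio had 0.1 FPKM added.

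The members and lists were chosen with earlier results of these data known. Besides the members, the rule named the 5 other keratins with the highest median FPKM, for each list the genes past the threshold or else the 2 with the smallest p, the 2 highest of some lists, and the 5 genes most like Krt14, Krt18 and Vim. Genes named outside it were chosen after their values were seen.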

Additional observations from a re-analysis of the deposited data

Results flagged for a closer look

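Of 26 checks of a gene within a group, 1 found a tumor far from the others. Cdh2 in control tumor 6 was at 4.558 log2 CPM, while the other control tumors lay between 4.01 and 4.29. Its gap to the nearest tumor was 0.493 of the group's range, just past the critical value of 0.493 for 9 samples, and chance flags about 1 in 20 groups. This tumor also had 1 Krt18 count, 0 Krt8 counts and 11.7% of its counts on genes under 2000 bases, the lowest share of the control tumors, and the part of these in its Cdh2 level was not tested.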

How the results depend on the processing

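In edgeR 64 genes passed the study's threshold. This count was 197 with DESeq2, 432 with no filter on low counts, 33 with the replicate number as a block, 36 with the short-gene share as a term, and 34 to 165 when tumors were left out in turn (34 without cryoablation tumor 5, 39 without 2, 165 without 3, 106 without 7, 120 without 6, 122 without control tumor 1, 120 without 5). The members past the threshold went from 0 to 1 with DESeq2 and to between 0 and 4 when tumors were left out in turn. The replicate numbers did not pair the tumors: over 8 pairs the correlation of deviations ran from -0.51 to 0.64, only 2 of 8 tumors correlated best with their own number, and the block called 0 members and changed no other call on them.

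Fold changes that reversed were, with limma voom, Krt7 -0.82, Krt8 -0.72, Krt14 -0.11, Krt18 -0.98 and Krt19 -0.36. Without cryoablation tumors 2, 4 and 5 they were Krt7 -0.48, Krt8 -0.73, Krt14 -0.37, Krt18 -0.32, Krt19 -0.36 and Epcam -0.041. With the short-gene share as a term they were Krt7 -0.22, Krt8 -0.39, Krt14 -0.22, Krt18 -0.068 and Krt19 -0.036. With tumors left out in turn Krt14 ran from -0.041 (without cryoablation tumor 5) to 0.28, and Cdh2 from -0.043 (without cryoablation tumor 7, and -0.0045 without control tumor 3) to 0.066. The type I to type II difference was 0.091 without tumors 2, 4 and 5 and 0.017 on counts in place of FPKM, and the Vim to keratin difference was 0.72 without those tumors. The relation of Epcam with Cdh1 reversed to -0.072 without the 2 farthest tumors, and that of Vim with Krt18 to -0.19 in residuals on the short-gene share. The cause was not tested.

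Of 16 relations 8 were under an adjusted p of 0.05 over 17 tumors, 5 within the control group, 5 without tumors 2, 4 and 5, 4 in the 12 tumors without the 2 farthest, and 4 in residuals. Genes of the lists past the threshold were 2, and 5 with no filter. Depth limited Krt20 and the 12 epithelial genes below the filter, whose summed counts were 6 to 203 per tumor.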

Other observations

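Among the 10 genes with the largest spread over the tumors, 6 were not keratins. Acta1, the actin of skeletal muscle, had 0 to 730 counts. Wfdc2, a secreted protein of ductal epithelia, had 0 to 263 counts, and Prlr, the prolactin receptor, had 0 to 127. Ltf had 0 to 187 counts, Rnase2a had 0 to 203 and Retnla, a product of alternatively activated macrophages and fat, had 6 to 1061. Wfdc2 had a log2 fold change of 2.92 (SE 1.03, edgeR adjusted p = 0.728) in the cryoablation group, and Prlr had 0.996 (SE 0.86, adjusted p = 0.747). Without cryoablation tumors 2, 4 and 5 these values were 0.11 and 0.41.

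Genes of the epithelial program were found at very different levels. Itgb4, the hemidesmosome integrin that anchors basal epithelial cells, had a median of 39 FPKM, and Sfn, the stratifin of stratified epithelia, had 16.5 FPKM. Both were detected in each of the 17 tumors, with at least 1734 and 283 counts. Cldn7, Esrp1, Esrp2, Grhl2, Ovol1 and Elf3, junction and regulatory genes of simple epithelia, reached at most 15, 25, 13, 15, 7 and 11 counts. They belong to 12 epithelial genes below the filter whose summed counts were 6 to 18 in the 5 tumors with the least Krt18 and 18 to 203 in the other 12, where their r with Krt18 was 0.86, given as a description. Over the same 12 tumors Krt18 had r = 0.25 with the mean of the 15 epithelial genes that passed the filter. With the mean of the 5 intestinal genes that passed it, r was 0.21.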
